A study of Rattus norvegicus with 6 samples.

Results

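The Indian hedgehog and PTHrP loop was followed through 9 genes, chosen by symbol: the secreted signals Ihh and Pthlh, the PTHrP receptor Pth1r, the hedgehog receptor Ptch1, the transducer Smo, the hedgehog-binding antagonist Hhip and the transcription factors Gli1, Gli2 and Gli3. All 9 were found among the 17954 genes of the deposited tables, and all 9 passed the filter on low counts. Expression was measured by mRNA sequencing of rat chondrocytes from the mandibular condyle, the head of the jaw joint, as 3 libraries of condylar cartilage organoid and 3 libraries of 2D culture (cells grown flat). The organoids were kept in a chondrogenic medium whose composition is not given, and the 2D cells in DMEM with 20% fetal bovine serum and antibiotics, so culture format, medium and serum cannot be told apart. The labels give no strain, age, sex or harvest time, and nothing in them says that libraries sharing a group had different animals or cultures as their source, so the p-values reflect only how much these libraries vary, which may be technical.

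In growing cartilage, chondrocytes that leave the proliferating pool and begin to enlarge secrete Indian hedgehog. The ligand binds Patched1, which relieves the inhibition of Smoothened and lets Gli proteins act as activators rather than repressors of transcription, and Gli1, Ptch1 and Hhip are themselves transcribed in response. Hedgehog signalling maintains the expression of PTHrP (the product of Pthlh) in cells near the articular surface, and PTHrP acting through its receptor on proliferating and prehypertrophic chondrocytes delays their enlargement, which closes a feedback loop. In the mandibular condyle the same signals are known from the fibrocartilage cap and the chondrocytes beneath it.

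The RefSeq promoters of the antagonist Hhip and the receptor Ptch1 are shown because both genes belong to the group that differed most between the cultures and both are known hedgehog targets. The table of promoters (build GRCr8, 250 bases before to 50 bases after the annotated start, 5′ to 3′ on the strand of the gene) held 6 of the 9 members. Capitals mark the Gli consensus GACCACCCA, searched on both strands.
Ptch1 (chr17:1555321-1555620, plus strand): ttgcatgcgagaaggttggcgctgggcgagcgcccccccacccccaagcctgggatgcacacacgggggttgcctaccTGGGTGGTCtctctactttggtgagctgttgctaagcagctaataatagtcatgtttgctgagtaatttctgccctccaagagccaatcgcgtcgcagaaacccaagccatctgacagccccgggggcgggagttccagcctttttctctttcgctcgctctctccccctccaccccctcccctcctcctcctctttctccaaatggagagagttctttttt
Hhip (chr19:44767788-44768087, plus strand): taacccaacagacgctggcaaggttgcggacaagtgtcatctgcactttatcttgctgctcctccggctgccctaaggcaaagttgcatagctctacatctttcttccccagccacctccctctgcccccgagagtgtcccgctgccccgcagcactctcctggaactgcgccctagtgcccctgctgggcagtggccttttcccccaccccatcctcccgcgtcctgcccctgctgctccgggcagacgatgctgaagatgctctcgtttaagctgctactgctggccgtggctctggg
The Ptch1 window held the consensus as its reverse complement TGGGTGGTC, with its first base at position -172 from the start. Of all 33469 promoters in the table, 129 (0.385%) held a match. The windows of Hhip, Pth1r, Smo, Gli2 and Gli3 held none, which says only that these letters are not in those 300 bases.

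Library totals were 18592574 to 25656808 estimated counts in organoids and 25856486 to 26472447 in 2D culture. The 10 most abundant genes took 35.8% to 41.9% of the counts in organoids and 10.7% to 11.5% in 2D culture, and levels are therefore given as CPM (counts scaled to a common library size) after TMM normalisation, which corrects for such a difference in composition. A gene is called where edgeR's quasi-likelihood test gave an adjusted p under 0.05 over all 13052 genes tested. Organoid libraries differed from each other more than 2D libraries did: for log2 CPM, the SD of a typical gene (median over genes) was 0.689 among organoids and 0.137 among 2D cultures. With library totals in place of TMM, the median log2 fold change of all genes moved by -0.612, so every fold change below would be lower by about that amount. Over all genes 1944 were called higher and 1650 lower, and with library totals 1063 and 3529, a share of 54.1% and of 23.1% of the calls higher.

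The 9 genes fell into 2 kinds. The signal Ihh, the receptor Pth1r and the hedgehog targets Ptch1, Hhip and Gli1 were far higher in organoids, with no overlap between the groups, whereas the transducer Smo, the factors Gli2 and Gli3 and the signal Pthlh overlapped between the groups and were not called. Thus 5 of 9 members (55.6%) were called, all 5 higher, against 27.5% of all genes tested called in either direction and 14.9% called higher. The groups of 5 members did not overlap, all 5 higher in organoids, against 53.5% of all genes tested in either direction and 23.4% higher. In bulk libraries a change in the share of cells that express a gene and a change in RNA per cell cannot be told apart.

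**Figure D1:**
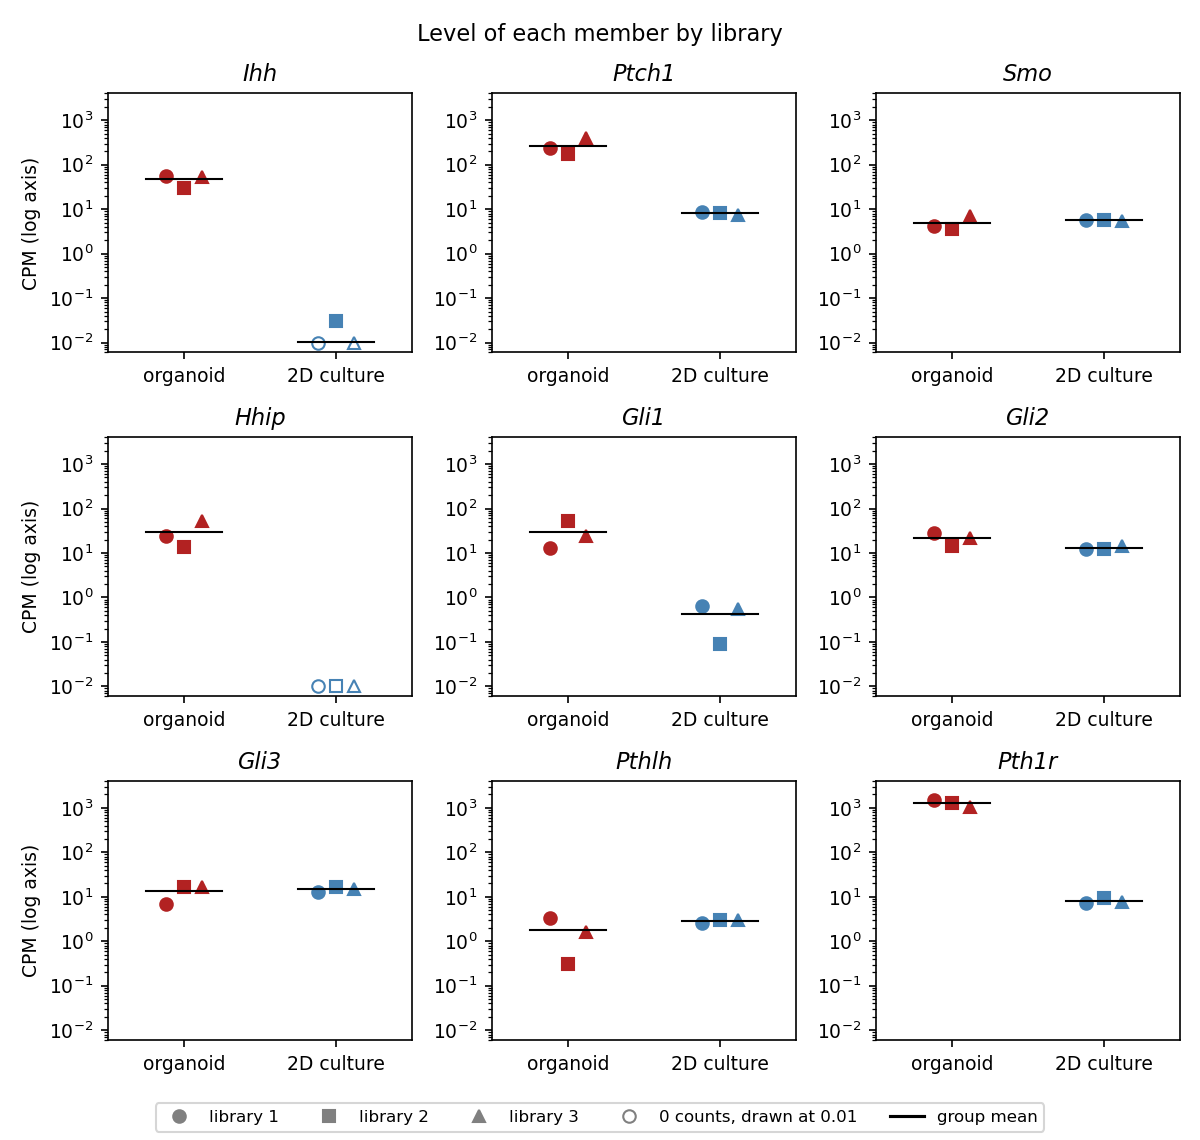
Level of each of the 9 members in CPM (log axis) in the 3 organoid libraries (left, red) and the 3 libraries of 2D culture (right, blue); black lines are group means and open symbols mark 0 counts. Ihh, Ptch1, Hhip, Gli1 and Pth1r lie higher in every organoid library than in every 2D library, and the other 4 genes overlap.

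Ihh (gene ID 84399), the ligand, was detected in every organoid, while a single count was found in 2D culture. It had 952, 508 and 1128 counts in organoids 1, 2 and 3, against 0, 1 and 0 counts in 2D cultures 1, 2 and 3. On the CPM scale these were 56.1, 30.5 and 53.4 in organoids and at most 0.0306 in 2D culture. All 3 organoids were thus above all 3 2D cultures, and organoid 2 was the lowest of the organoids. The pooled organoid level was 4616-fold the level given by the single 2D count (exact 95% limits of 828 and 182391, for counting error alone), and without 2D culture 2, which held that count, the level was at least 1023-fold higher. edgeR's quasi-likelihood test gave an adjusted p of 0.000294.

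Ptch1 (gene ID 89830), the receptor that hedgehog ligands bind and a direct target of the pathway, carried the Gli consensus shown above. It stood at 232, 177 and 392 CPM in organoids 1, 2 and 3, against 8.61, 8.41 and 7.58 CPM in 2D cultures 1, 2 and 3. Every organoid was far above every 2D culture, with organoid 3 the highest. The mean was 267 ± 112 CPM in organoids and 8.20 ± 0.545 CPM in 2D culture (SD, n = 3 each), a log2 fold change of 5.03 ± 0.37 (SE; edgeR adjusted p = 0.000506). Unlike Ihh and Hhip, Ptch1 was readily detected in the 2D cells, with 245 to 281 counts in each library.

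Hhip (gene ID 291936), a membrane-anchored protein that binds and sequesters hedgehog ligands, was not detected in 2D culture. It had 402, 226 and 1119 counts in organoids 1, 2 and 3, against 0 counts in each of the 3 2D cultures, and a count of 0 allows a level of up to 3 counts per library, or 0.0917 to 0.0929 CPM. Organoid 3 was again the highest, at 52.9 CPM, against 23.7 and 13.6 CPM in organoids 1 and 2. Set against 3 counts over the whole 2D group, Hhip was at least 1039-fold higher in organoids, and at least 608-fold higher without organoid 3 (edgeR adjusted p = 0.00343 over all libraries). Leaving out a 2D culture lowers this bound by construction, to at least 691-fold to 695-fold.

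Gli1 (gene ID 140589), an activator whose transcript is widely used as a readout of hedgehog signalling, was low but detected in 2D culture. It was at 13.0, 53.5 and 23.9 CPM in organoids 1, 2 and 3, against 0.644, 0.0917 and 0.557 CPM in 2D cultures 1, 2 and 3, where these values rest on 21, 3 and 18 counts. Organoid 2 was the highest organoid and 2D culture 2 the lowest 2D library. The log2 fold change was 6.11 ± 0.91 (SE; edgeR adjusted p = 0.0051), and 5.45 without organoid 2, where the adjusted p was 0.0066. Gli1 was the member with the largest spread within 2D culture, where its highest level was 7.02 times the lowest.

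Smo (gene ID 25273), the transducer that Patched1 holds in check, overlapped between the groups. It had 4.24, 3.67 and 6.91 CPM in organoids 1, 2 and 3, against 5.58, 5.75 and 5.48 CPM in 2D cultures 1, 2 and 3. Organoid 3 was above all 2D cultures and organoids 1 and 2 were below them. The log2 fold change was -0.18 ± 0.49 (SE; edgeR adjusted p = 0.814), with a 95% interval of -1.33 to 0.97, and changes within these bounds were not distinguishable from 0 at this spread. Without organoid 2 the sign turned (0.041, adjusted p = 0.939).

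Gli2 (gene ID 304729) is the main activator of hedgehog transcription, and Gli3 (gene ID 140588) acts mainly as a repressor when the pathway is off. Gli2 was at 27.9, 14.4 and 21.6 CPM in organoids 1, 2 and 3, against 12.2, 12 and 14.7 CPM in 2D cultures 1, 2 and 3. Organoids 1 and 3 exceeded all 2D cultures, and organoid 2 lay within their range. The log2 fold change was 0.72 ± 0.33 (SE; 95% interval -0.066 to 1.5), with an edgeR adjusted p of 0.151, and Gli2 was called without organoid 2 (0.98, adjusted p = 0.0216), while with total library size it came to 0.059 (adjusted p = 0.902).

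Gli3 was at 6.72, 16.6 and 16.7 CPM in organoids 1, 2 and 3, against 12.8, 16.5 and 15 CPM in 2D cultures 1, 2 and 3. Organoid 1 alone lay below all 2D cultures. The log2 fold change was -0.15 ± 0.42 (SE; 95% interval -1.14 to 0.85; edgeR adjusted p = 0.824), and it was 0.19 without organoid 1 (adjusted p = 0.586).

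Pthlh (gene ID 24695), which encodes the secreted signal PTHrP, was scarce in all libraries. It had 57, 5 and 35 counts in organoids 1, 2 and 3, against 86, 100 and 96 counts in 2D cultures 1, 2 and 3. These were 3.36, 0.3 and 1.66 CPM in organoids and 2.64, 3.06 and 2.97 CPM in 2D culture. Organoid 1 was above all 2D cultures and organoids 2 and 3 were below them, with 11.2-fold between the highest and the lowest organoid. The log2 fold change was -0.70 ± 0.89 (SE; edgeR adjusted p = 0.597), with a 95% interval of -2.83 to 1.43, and it ranged from -1.51 to -0.16 when single libraries were left out.

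Pth1r (gene ID 56813), the receptor of PTHrP and of parathyroid hormone, varied least among organoids of all 9 members. It stood at 1530, 1320 and 1023 CPM in organoids 1, 2 and 3, against 7.26, 9.32 and 7.55 CPM in 2D cultures 1, 2 and 3. The groups were far apart, and the highest organoid was only 1.5 times the lowest. The mean was 1291 ± 255 CPM in organoids and 8.05 ± 1.11 CPM in 2D culture (SD, n = 3 each), a log2 fold change of 7.32 ± 0.32 (SE; edgeR adjusted p = 0.000142). This placed Pth1r 108th by fitted fold change among the 1944 genes called higher, with Gli1 165th and Ptch1 252nd.

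**Figure D2:**
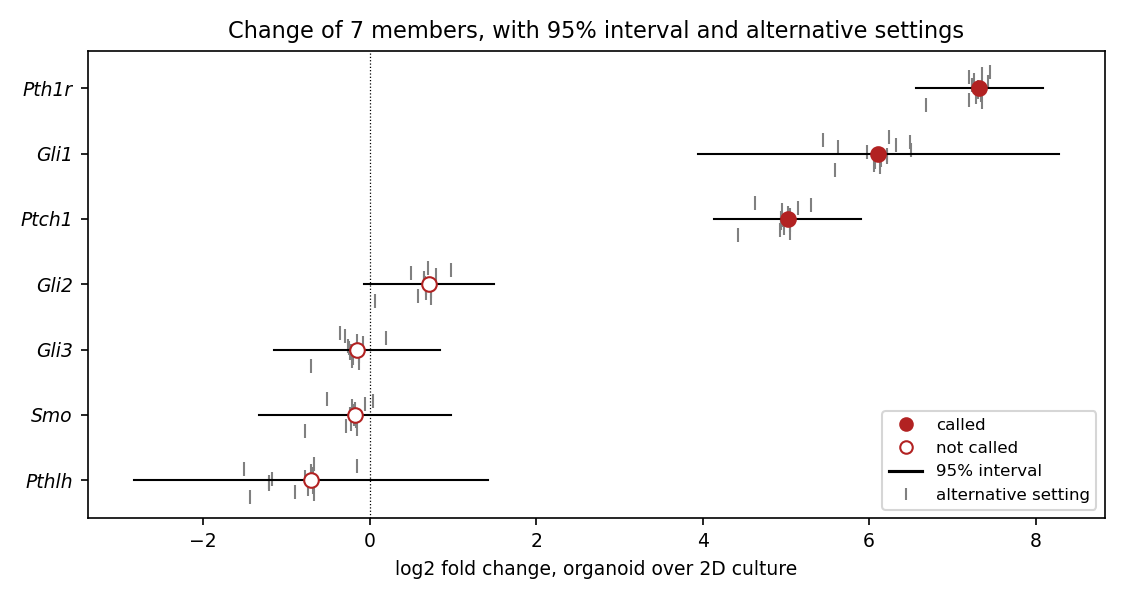
Log2 fold change, organoid over 2D culture, of the 7 members with more than 3 counts in each group; circles are the fitted values (filled where called), lines their 95% intervals and grey ticks the values under 14 alternative settings. Pth1r, Gli1 and Ptch1 stay far right of 0 under all of these settings, while the intervals of Gli2, Gli3, Smo and Pthlh include 0.

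The organoid libraries did not rank alike across the loop. Ptch1, Hhip and Smo were highest in organoid 3, Ihh, Gli2, Pthlh and Pth1r in organoid 1, and Gli1 in organoid 2. Organoid 2 held the lowest level of Ihh, Ptch1, Hhip, Smo, Gli2 and Pthlh, and at the same time the highest level of Gli1. Hhip and Gli1 varied most among the genes that rose, with the highest organoid at 3.90 and 4.13 times the lowest, against 1.84 times for Ihh and 2.22 times for Ptch1. Relations among the members across these 3 libraries were not tested. Col2a1, the main collagen of cartilage, was at 78321, 6414 and 21945 CPM in organoids 1, 2 and 3, so organoid 2 also stood lowest there, and its part in the order of the members was not tested.

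**Figure D3:**
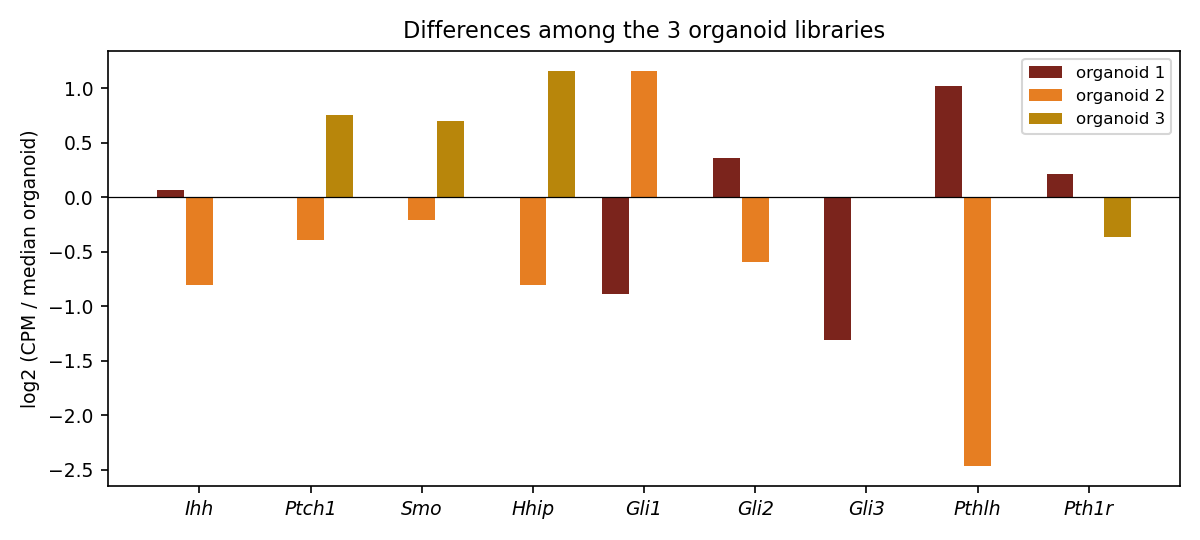
Log2 ratio of each member's CPM in organoids 1, 2 and 3 to its median over the organoids. Organoid 2 lies below the median for Ihh, Ptch1, Smo, Hhip, Gli2 and Pthlh and above it for Gli1, and organoid 1 lies below it for Gli1 and Gli3.

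Ratios of counts within a library do not depend on scaling between libraries, and gene length cancels when the same ratio is compared across libraries. There were 54.8, 48.3 and 56.8 Ptch1 counts per Smo count in organoids 1, 2 and 3, against 1.54, 1.46 and 1.38 in 2D cultures 1, 2 and 3. The receptor thus stood in a narrow ratio to the transducer within each group, although both genes differed among organoids. Smo had only 72, 61 and 146 counts in organoids 1, 2 and 3, and a relation between Ptch1 and Smo was not tested. Gli1 counts per count of Gli2 plus Gli3 were 0.375, 1.73 and 0.624 in organoids and 0.0258, 0.00322 and 0.0187 in 2D culture, again with no overlap. Pth1r counts per Pthlh count were 456, 4392 and 618 in organoids and 2.76, 3.05 and 2.54 in 2D culture, where the value of organoid 2 rests on 5 Pthlh counts. The ratio of Gli2 to Gli3 was 4.15, 0.863 and 1.3 in organoids and 0.95, 0.729 and 0.975 in 2D culture, and these groups overlapped (two-sided exact permutation test, p = 0.3). For the first 3 ratios the same exact permutation test gave p = 0.1, the smallest that 3 against 3 libraries allow (adjusted p = 0.12 over 6 ratios). Hhip per Ptch1 and Ihh per Pth1r, also among the 6, gave the same p in this test.

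**Figure D4:**
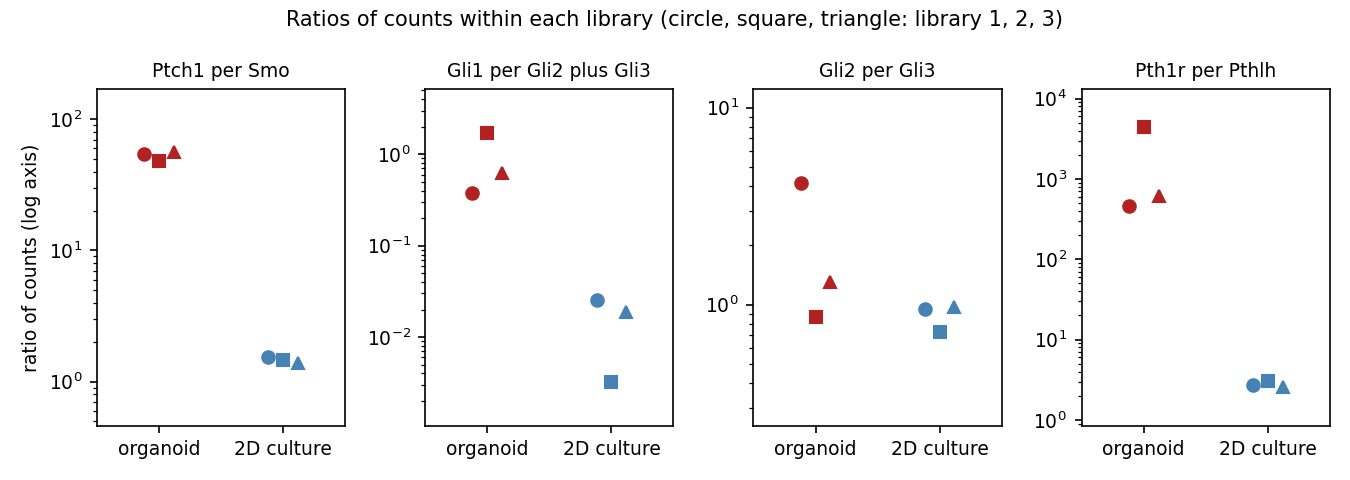
Ratios of counts within each library (log axis) for 3 organoid libraries (left, red) and 3 libraries of 2D culture (right, blue). Ptch1 per Smo lies between 48.3 and 56.8 in organoids and between 1.38 and 1.54 in 2D culture, and the ratio of Gli2 to Gli3 overlaps between the groups.

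Genes that act on the hedgehog signal outside the responding cell, or beside its receptor, moved in part. Of 14 such genes in the files 11 were tested, and 4 were called higher, 1 lower and 6 neither, with a median log2 fold change of 1.02 against -0.033 over all genes tested (45.5% called, against 27.5% of all genes). Disp1, which releases lipid-modified ligand from the producing cell, was at 58.4, 26 and 45.3 CPM in organoids and 9.87, 7.49 and 7.30 CPM in 2D culture (log2 fold change 2.39 ± 0.36, edgeR adjusted p = 0.00545). Scube1, a secreted protein related to Scube2, which helps solubilise the ligand, rose by 4.96 ± 0.68, and by 4.34 without organoid 1. Scube2 itself and the ligand gene Dhh had 0 counts in all 3 organoids and few in 2D cultures 1, 2 and 3 (2, 5 and 0 for Scube2, 3, 0 and 0 for Dhh), and neither was tested.

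The co-receptors went different ways. Gas1, which aids ligand binding and is repressed by hedgehog signalling in other tissues, was at 4.83, 5.95 and 9.23 CPM in organoids and 34.9, 40.6 and 37.0 CPM in 2D culture, and fell by 2.49 on the log2 scale (edgeR adjusted p = 0.00314). Boc was higher by 0.96 ± 0.25 (adjusted p = 0.0306), but lost its call without any single 2D culture (adjusted p = 0.122 to 0.136) and with total library size (adjusted p = 0.399). Cdon had 2.65 ± 0.37 CPM in organoids and 5.09 ± 1.6 CPM in 2D culture and was not called (adjusted p = 0.249).

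Of 25 intracellular regulators tested, 4 were higher, 0 lower and 21 neither (median 0.18). The 16% called were all rises, close to the 14.9% of all genes called higher, while 27.5% of all genes were called in either direction. Kif7, the ciliary kinesin that regulates Gli processing, was at 49.8, 73.4 and 69.8 CPM in organoids and 16.6, 14.6 and 18.8 CPM in 2D culture (1.95 ± 0.25, edgeR adjusted p = 0.00288). Ulk3, a kinase that phosphorylates Gli proteins, rose by 2.24 ± 0.29, and Gsk3b, a kinase with a part in Gli3 processing and in Wnt signalling, by 2.01 ± 0.31. Sufu, the cytoplasmic inhibitor of Gli proteins, had 17.5 ± 6.59 CPM in organoids and 13.2 ± 0.572 CPM in 2D culture and was not called (0.40 ± 0.35, adjusted p = 0.434), with a turned sign under total library size (-0.27).

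Vertebrate hedgehog signalling runs through the primary cilium, and the 33 tested genes of ciliary transport had 5 called higher, 1 lower and 27 neither. This was 18.2% called (median 0.58), against 27.5% of all genes called in either direction and 14.9% called higher. Arl13b, a ciliary GTPase, was at 41.4, 49.2 and 35.0 CPM in organoids and 12, 12.8 and 12.2 CPM in 2D culture (1.76 ± 0.24, edgeR adjusted p = 0.00333). It was the only gene of this list that stayed called higher without any single 2D culture and with total library size.

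Other genes described as hedgehog-responsive in some tissue went both ways. Of 17 tested, 5 were called higher, 4 lower and 8 neither (52.9% called, against 27.5% of all genes, median 0.47). Foxc1, a forkhead factor, was at 12.1, 42.4 and 9.23 CPM in organoids and 0.368, 0.611 and 1.05 CPM in 2D culture (4.96 ± 0.82, and 4.02 without organoid 2), and like Gli1 it was highest in organoid 2. Bmp2 rose by 3.49 ± 0.30. Nr2f2, an orphan nuclear receptor, fell by 4.56 on the log2 scale, and Igfbp6, a binding protein for insulin-like growth factors, by 2.46. Foxl1 and Nkx3-2 had 0 counts in all 3 organoids and few in 2D cultures 1, 2 and 3 (7, 0 and 2 for Foxl1, 0, 1 and 0 for Nkx3-2), and neither was tested.

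Downstream of the PTHrP receptor, 11 of 39 tested genes were called higher, 3 lower and 25 neither (35.9% called, against 27.5% of all genes, median 0.30). Some of these genes are counted in other lists as well. Prkaca, Prkacb, Prkar1a, Arrb1 and Arrb2 are also among the intracellular regulators. Mef2c, Hdac4 and Zfp521 are also among the genes that control Ihh. Receptor activation raises cyclic AMP, which holds the salt-inducible kinases in check and lets class IIa histone deacetylases such as Hdac4 restrain the Mef2 factors that drive chondrocyte enlargement. Mef2c was at 1055, 630 and 892 CPM in organoids and 48.1, 47.8 and 49.7 CPM in 2D culture (4.15 ± 0.28, edgeR adjusted p = 0.000343), and Mef2a and Mef2d rose by 3.04 ± 0.28 and 1.85 ± 0.21. Sik3 rose by 1.79 ± 0.30, but lost its call without 2D culture 1 (adjusted p = 0.0536) and without 2D culture 3 (adjusted p = 0.0551). Sik1 had 11.4, 12.3 and 4.78 CPM in organoids and 5.70, 3.94 and 3.71 CPM in 2D culture. It overlapped between the groups and was not called (1.09 ± 0.52, edgeR adjusted p = 0.163), but was called without organoid 3 (adjusted p = 0.0266).

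Hdac4 was at 23.1, 69.0 and 15.5 CPM in organoids and 11.2, 15.2 and 11.0 CPM in 2D culture and was not called (1.52 ± 0.57, edgeR adjusted p = 0.0918). It passed without organoid 3 (adjusted p = 0.0352), and its fold change was 0.68 without organoid 2. Gnas, the stimulatory G protein to which the receptor couples, was at 447, 2826 and 445 CPM in organoids, so that organoid 2 was far above the others, and 152, 185 and 137 CPM in 2D culture. It was called (2.97 ± 0.79, adjusted p = 0.0337), with 1.54 without organoid 2. Gnas lost the call without any single 2D culture (adjusted p = 0.107 to 0.129) and with total library size (2.45, adjusted p = 0.054). Pde4b, a phosphodiesterase that degrades cyclic AMP, fell by 4.97 on the log2 scale, and by 6.53 without organoid 1. Pde4d, another phosphodiesterase of the same family, went the other way, at 62.6 ± 7.66 CPM in organoids and 24.5 ± 1.71 CPM in 2D culture (SD, n = 3 each; log2 fold change 1.36 ± 0.21, adjusted p = 0.00539; 0.72 with total library size, adjusted p = 0.0424).

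Transcripts known to respond to cyclic AMP were split, with 4 of 15 tested called higher, 4 lower and 7 neither (53.3% called, against 27.5% of all genes, median 0.31). Sik1, Crem, Rgs2, Pde4b, Pde4d and Pde10a are also in the list of the PTHrP receptor arm, so the counts are not separate signals. The nuclear receptor Nr4a3 rose by 3.65 ± 0.67 and lost its call without any single 2D culture (edgeR adjusted p = 0.0618 to 0.0756). Dusp1, a phosphatase of MAP kinases, fell by 1.97 on the log2 scale. The second PTH receptor, Pth2r, was below the filter, with 0.354 ± 0.612 CPM in organoids and 0.0721 ± 0.0996 CPM in 2D culture.

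Genes that control Ihh in growth cartilage had 13 of 22 tested called higher, 3 lower and 6 neither (72.7% called, against 27.5% of all genes, median 2.54). This list was drawn up with results of these libraries known and is no independent evidence of a direction. Runx2 and Runx3, which activate the Ihh gene in mouse, rose by 2.89 ± 0.26 and 3.12 ± 0.25. Runx3 was at 61.9, 76.7 and 78.3 CPM in organoids and 8.61, 9.6 and 6.69 CPM in 2D culture. Foxa2, a forkhead factor of hypertrophic chondrocytes, was at 6.01, 12.4 and 6.77 CPM in organoids and had 0 counts in 2D culture, a level at least 269-fold higher in organoids. Bmp6, a growth factor of hypertrophic cartilage, rose by 5.26 ± 0.67. Bmpr1b, a BMP receptor, had 4, 0 and 0 counts in organoids 1, 2 and 3, against 57, 64 and 95 counts in 2D cultures 1, 2 and 3. It was called lower (log2 fold change -4.77, edgeR adjusted p = 0.0489), a value that rests on the 4 counts of organoid 1 and came to -8.90 without it. Its call was lost without organoid 2 (-4.20, adjusted p = 0.0555) and without any single 2D culture, where the adjusted p was 0.148 to 0.171. The call was also lost with no low-count filter (adjusted p = 0.0685) and with the replicate number as a block (adjusted p = 0.0967).

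**Figure D5:**
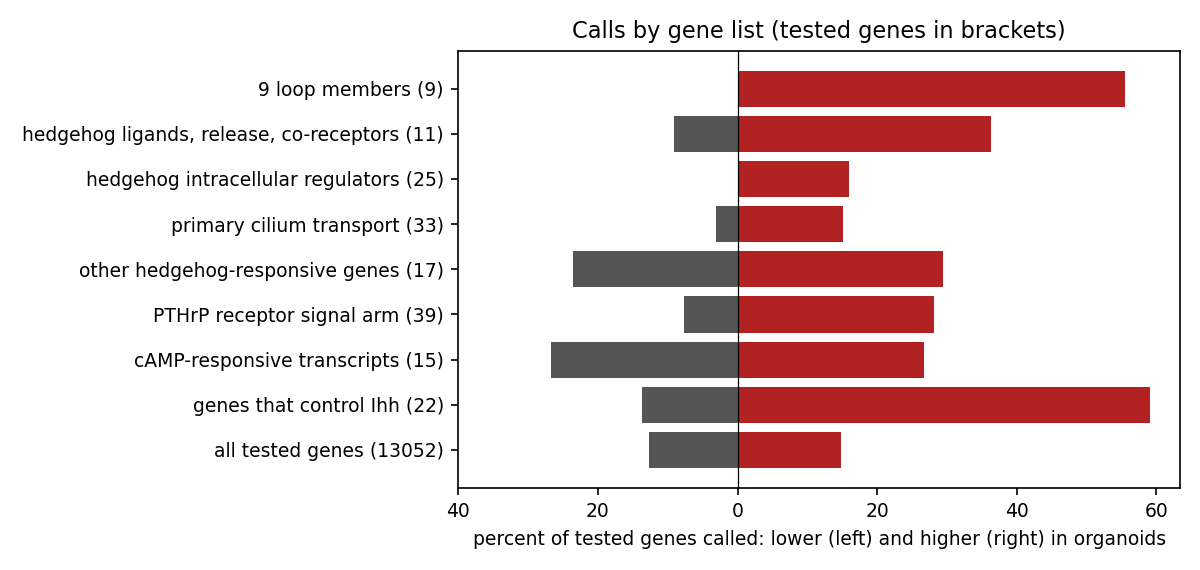
Percent of tested genes called lower (left, grey) and higher (right, red) in organoids for the 9 loop members, 7 lists of the pathway and all tested genes, with the number tested in brackets. The members and the genes that control Ihh lie furthest right. Some genes stand in several of the 7 lists, so the bars of these lists are not separate signals. The list of intracellular regulators, with 16% called, all higher, lies near the 14.9% of all tested genes called higher. That of ciliary transport, with 18.2% called in either direction, stays below the 27.5% of all tested genes.

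The genes whose profiles over the 6 libraries lay closest to a member, by the distance between mean-centred log2 CPM values among 12516 other genes, are given as a description. These values include a prior count of 2 (a small count added to each library), which compresses differences near 0 counts. Closeness to Ihh, nearly without counts in 2D culture, depends in part on this floor. The fitted log2 fold changes were 9.12 for Snorc and 11.6 for Ihh. Closest to Ihh were Snorc, a small proteoglycan of cartilage (distance 0.877 log2 units), Olah (1.09), Phex, an endopeptidase of mineralising tissue (1.27), Colgalt2 (1.28) and Hhip (1.31). Snorc was at 159, 78.8 and 94.4 CPM in organoids and 0.123, 0.214 and 0.248 CPM in 2D culture, so like Ihh it was lowest in organoid 2. Olah, Colgalt2 and Hhip were also lowest there, whereas Phex was highest in organoid 2, at 624, 751 and 583 CPM in organoids 1, 2 and 3. Closest to Pth1r were Panx3, a channel protein of prehypertrophic chondrocytes and osteoblasts (0.639), Cox4i2 (0.728), Phospho1, a phosphatase of matrix mineralisation (0.889), Lgals9 (0.899) and B4galnt3 (0.911). Panx3 was at 1688, 1630 and 1506 CPM in organoids and 13.8, 12.5 and 12.8 CPM in 2D culture, and like Pth1r it differed little among organoids.

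Closest to Gli1 were Pik3ap1 (0.655), Megf10 (1.14), Rapgef3 (1.24), Aknad1 (1.40) and Prr15 (1.45), the first 4 of which were highest in organoid 2. Closest to Pthlh were Acadl (0.336), Gprasp2 (0.435), Naprt (0.445), Slc35f5 (0.449) and Dync1i1 (0.464), all lowest in organoid 2. A fractional estimated count, a sign of reads shared with other genes, was found in 5 libraries for Gprasp2, 3 for Lgals9 and 1 for Aknad1.

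Markers of cartilage and bone moved with the 5 genes that rose, and their part in these results was not tested. Of all genes tested, 14.9% were called higher and 27.5% in either direction, the shares to set beside the counts below. The 10 tested markers of proliferating chondrocytes had 9 called higher (90%). The summed level of this list was 10472 to 98561 CPM in organoids and 1518 to 1625 CPM in 2D culture. Most of the sum in 2D culture was Acan, at 1454, 1513 and 1413 CPM. The 15 markers of prehypertrophic and hypertrophic cartilage had 13 called higher, at 23733 to 33239 CPM in organoids and 961 to 1082 CPM in 2D culture, and Col10a1, the collagen of hypertrophic cartilage, was at 2637, 265 and 1727 CPM in organoids and 0.429, 0.428 and 0.65 CPM in 2D culture. All 12 osteoblast and osteocyte markers were called higher, at 21830 to 28943 CPM in organoids and 820 to 939 CPM in 2D culture. These 2 lists share 5 genes (Ibsp, Spp1, Alpl, Phex and Sp7), which summed to 18357 to 26115 CPM in organoids and 601 to 674 CPM in 2D culture, so their counts and sums are not separate signals. Osteoblasts are also known to express Pth1r. The markers of resting and periarticular cartilage, where Pthlh is normally made, had 4 of 8 tested called higher and 1 lower, and Sfrp5 had 0 counts in all 6 libraries. Of these rises, only that of Wif1 stayed called under all alternatives. Sfrp1 and Barx1 lost their calls without any single 2D culture, and Ucma without 2D culture 2 or 3.

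The labelled cell type was checked against its markers. Sox9, the master factor of cartilage, was at 1026 ± 360 CPM in organoids and 53.7 ± 2.09 CPM in 2D culture, and Col2a1 at 35560 ± 37838 CPM in organoids and 4.01 ± 1.01 CPM in 2D culture (SD, n = 3 each), so the defining collagen of cartilage was nearly absent from the flat cells. Acan, a further chondrocyte marker, was abundant in both groups and not called (edgeR adjusted p = 0.0824). It was at 8278, 1717 and 3044 CPM in organoids and 1454, 1513 and 1413 CPM in 2D culture. The chondrocyte markers Comp, Hapln1 and Matn3 were called higher in organoids, and Matn3 lost its call without any single 2D culture. Col1a1, a collagen typical of bone and fibrous tissue, took 26.4%, 20.0% and 23.0% of all counts in organoids 1, 2 and 3, against 4.35%, 3.31% and 4.23% in 2D cultures 1, 2 and 3.

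Markers of other cell types were mixed, with some members of a list raised while others were near 0. Over all genes tested, 14.9% were called higher and 12.6% lower, and few markers of each list were tested. Of 10 endothelial markers 4 were tested, of which 2 were called higher and 1 lower, and the summed level was 27.9 to 92.8 CPM in organoids and 21.5 to 22.8 CPM in 2D culture. Most of the 2D sum was Egfl7, called lower, at 7.68 ± 4.26 CPM in organoids and 21.1 ± 0.4 CPM in 2D culture. Its log2 fold change was -1.46 (edgeR adjusted p = 0.0481), and its call was lost without any single 2D culture (adjusted p = 0.147 to 0.156). Plvap was at 22.7, 35.9 and 12.4 CPM in organoids and had 1, 0 and 2 counts in 2D cultures 1, 2 and 3, a pooled ratio of 741 (exact 95% limits of 253 and 3599.9, counting error alone). Esam was at 52.8, 17.7 and 9.42 CPM in organoids and 0.420 ± 0.157 CPM in 2D culture (log2 fold change 5.97 ± 0.83, edgeR adjusted p = 0.0041; 5.01 without organoid 1). The defining genes Pecam1 and Cdh5 had 8 and 14 counts in organoid 1 and 0 in organoids 2 and 3, and Kdr had 0 counts in organoids and 5, 11 and 17 in 2D cultures 1, 2 and 3.

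Of 10 blood cell and macrophage markers 4 were tested and 2 were called higher, with a summed level of 47.3 to 78.1 CPM in organoids and 7.89 to 10.7 CPM in 2D culture. Cd79a was at 13.8, 9.37 and 29.0 CPM in organoids and 0.0615 ± 0.0533 CPM in 2D culture (log2 fold change 8.03 ± 1.02, edgeR adjusted p = 0.0029; 7.45 without organoid 3 and 7.46 without 2D culture 1). Lyz2, with fractional counts in organoids, was at 6.77 ± 4.49 CPM in organoids and 0.429 ± 0.371 CPM in 2D culture, and lost its call without organoid 1 or any single 2D culture (adjusted p = 0.0589 to 0.129). Csf1r, the receptor that marks macrophages, was removed by the filter on low counts and had 551, 278 and 3 counts in organoids 1, 2 and 3, against 5, 0 and 9 counts in 2D cultures 1, 2 and 3. Ptprc, which marks all white blood cells, had 1, 0 and 3 counts in organoids and 0 in 2D culture, Tyrobp had 0 counts in organoids and 1 in 2D culture, and Adgre1 had 0 counts in all 6 libraries.

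Summed osteoclast markers stood at 214 to 396 CPM in organoids and 152 to 157 CPM in 2D culture, with 2 of 4 tested called higher. Nfatc1 was at 122 ± 48.3 CPM in organoids and 13.0 ± 1.07 CPM in 2D culture (SD, n = 3 each; log2 fold change 3.23 ± 0.33, edgeR adjusted p = 0.0014). Acp5 was higher by 3.50 ± 0.76 (adjusted p = 0.0174), by 2.25 without organoid 1, and lost its call without any single 2D culture (adjusted p = 0.0803 to 0.081). Ctsk, the most abundant of the list, was at 150 ± 55.5 CPM in organoids and 136 ± 1.56 CPM in 2D culture and was not called, and Tnfrsf11a had 0 counts in organoids and 1, 4 and 2 in 2D cultures 1, 2 and 3.

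Adipocyte markers stood at 12.8 to 23.1 CPM in organoids and 26.6 to 29.0 CPM in 2D culture. The single marker called of 4 tested was Fabp4, at 7.81 ± 2.87 CPM in organoids and 0.318 ± 0.0733 CPM in 2D culture (log2 fold change 4.60 ± 0.66, edgeR adjusted p = 0.00414; 3.94 with total library size), while Lep had 0 counts in all 6 libraries. Skeletal muscle markers stood at 3.97 to 26.6 CPM in organoids and 2.29 to 4.53 CPM in 2D culture, with Tnnt3 called higher and Myh3 lower of 3 tested, and both calls were lost without any single 2D culture. Myod1 and Myf5 had 0 counts in organoids. The part of these cell types in the results on the members was not tested. The 10 perichondrium and tendon markers had 1 called higher and 5 lower, at 803 to 1810 CPM in organoids and 2318 to 2377 CPM in 2D culture, and their part in the results on Smo, Gli2, Gli3 and Pthlh was not tested.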

How the data were processed

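The 6 libraries were grouped by their titles into 3 organoid and 3 2D culture libraries. Per the labels' protocols, Trizol served for RNA extraction and an mRNA kit, for DNBSEQ sequencing, for the libraries. The authors deposited expected counts (estimated counts per gene, not normalised); among the tools in the submitters' processing notes are RSEM, Bowtie2, DESeq2, HISAT and HISAT2, without versions or roles. The genome build, with its annotation and strand option, is not given in the sources used here. None of the 9 members had a fractional count. Values were rounded to whole numbers for the test and CPM were computed from the values as deposited.

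Testing used edgeR 4.0.16 under R 4.3.3 (filterByExpr with a minimum count of 10, TMM, robust quasi-likelihood F-test, Benjamini-Hochberg adjustment over all 13052 genes tested, threshold 0.05). The standard error of a log2 fold change is its size divided by the root of F, and 95% intervals use the t distribution at the fitted degrees of freedom. Distances between profiles used log2 CPM with a prior count of 2. Exact intervals and limits cover counting error only. Alternatives were other scalings, no filter, DESeq2 1.42.0, limma 3.58.1 (voom, with and without a weight per group), a replicate block and leaving out each library. Lists held 299 entries, of which 285 matched a gene in the files, some of them through RefSeq symbols (GRCr8).

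The members, lists, ratios and motif were chosen with earlier results of these data known. The text names all 9 members and, for each list, called genes of at least 1 CPM with the largest changes, the largest opposite change and a panel of pathway genes, of which it gives a part. Genes outside that rule (Scube2, Foxl1, Nkx3-2, Sfrp5, Pde4d and the cell type markers) were named for their values. Replicates differed by more than sampling noise in every pair (the lowest chi-square was 9.1 per degree of freedom). The edgeR test was tried on simulated counts with the same spread in both groups. In the data organoids varied more than 2D cultures, so that trial does not cover this difference.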

Additional observations from a re-analysis of the deposited data

How the results depend on the processing

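Under all 14 alternatives the 5 called members stayed called and higher, and no member was called lower. Pth1r ranged from 6.68 to 7.46, Ptch1 from 4.42 to 5.30 and Gli1 from 5.45 to 6.50 on the log2 scale, with the largest adjusted p-values 0.00415, 0.00836 and 0.0325. When single libraries were left out, Gli2 ranged from 0.50 to 0.98 (called without organoid 2), Smo from -0.51 to 0.041 (sign changed without organoid 2) and Gli3 from -0.35 to 0.19 (sign changed without organoid 1). Sufu changed sign with total library size (-0.27). Over all genes, 1944 were called higher and 1650 lower, against 1063 and 3529 with total library size (23.1% of calls higher, against 54.1%), and 2533 lower with limma-voom. Leaving out 1 library gave 703 to 2747 genes called higher and 399 to 2574 lower. The cause of these differences was not tested.

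The counts of the lists moved more than the members. Over the alternatives, called higher and lower ranged from 2 to 5 and 1 to 2 (4 and 1 as reported) for ligands, release and co-receptors, 3 to 7 and 0 to 4 (4 and 0) for intracellular regulators, 1 to 10 and 0 to 3 (5 and 1) for ciliary transport, 2 to 7 and 3 to 5 (5 and 4) for other responsive genes, 4 to 13 and 1 to 7 (11 and 3) for the PTHrP receptor arm, 1 to 6 and 2 to 5 (4 and 4) for cyclic AMP transcripts, and 11 to 14 and 0 to 4 (13 and 3) for control of Ihh. The lowest count of higher genes came without a 2D culture or with total library size in each list, and for intracellular regulators under other alternatives too.

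With the replicate number as a block, 1441 genes were called higher and 1289 lower, and the same 5 members were called. The numbers were not taken as pairs, because no label says that they mark a shared animal or culture. Same-numbered libraries deviated with correlations of 0.0606, 0.187 and 0.0207, and differently numbered ones with -0.135 to 0.0698. With 3 libraries per group these values cannot decide whether the numbers mark pairs. Depth limits Pthlh, at 5 counts in organoid 2, and Gli1, at 3 counts in 2D culture 2.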
